A study of Mus musculus with 32 samples.

Results

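The 4 libraries of the first mouse-host experiment were compared with the 12 libraries of mouse-host experiments 2, 3 and 4, out of 32 libraries in 8 experiments of 4 biological replicates each. The libraries were chosen by their titles, which give the host and the experiment number. All 16 hold parathyroid gland cells that arose from mouse embryonic stem (ES) cells carrying a Pth-tdTomato reporter, which complemented hosts labelled Gcm2-/- on an BDF1B6 background. Each library was made from 10 to 20 hand-picked tdTomato-expressing cells, with cDNA made by the SMART-Seq HT kit, which copies whole transcripts rather than transcript ends. Experiments 1, 2 and 3 are labelled female and 9 weeks old, and experiment 4 male and 9 weeks old, so the labels give experiment 1 the same strain, sex and age as experiments 2 and 3. They do not say whether the sex is that of the host or of the donor cells. The 8 control libraries came from C57BL/6-Pthtm1(P2A-tdTomato)/+ mice in 2 experiments, male at 8 weeks and female at 11 weeks. In all 24 of these libraries the picked cells carry the reporter, and the libraries of the rat host and of grafted cells were not used here. The labels do not say which animals, chimaeras, ES cell lines or processing days stand behind an experiment number, so experiment 1 is 1 instance of whatever its number stands for, and p-values over its 4 libraries measure only the spread between libraries. The question was which genes set experiment 1 apart, whether the differences followed transcript length, and where the control cells lay.

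Parathyroid cells sense blood calcium through the receptor Casr and release parathyroid hormone, the product of Pth, from granules that also hold chromogranin A, the product of Chga. Gcm2 is the transcription factor without which the gland does not form, so in a Gcm2-deficient host the gland can be supplied by donor stem cells. In full-length protocols the reads of a gene come from along its whole transcript, so long and short transcripts can be affected unequally by how RNA is kept, copied and fragmented.

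The defining genes of parathyroid cells were read in all 24 libraries. Gcm2, the gene missing in the hosts, was read in every library, at 570.3, 731, 568 and 801 CPM (counts scaled to a common library size by TMM) in experiment 1, at 639 to 1418 CPM (median 963) in experiments 2 to 4 and at 481 to 876 CPM (median 623) in control cells. Pth took 7.02% to 9.51% of the reads of experiment 1 libraries and 6.88% to 12.1% (median 8.77%) in experiments 2 to 4. Chga took 18.8% to 21.8% and 19.4% to 24.3%. The difference in neither share passed the test (two-sided exact permutation tests on 4 against 12 libraries, adjusted p = 0.336 and 0.116 over 9 library measures). Depth was 9514298 to 12603048 reads in experiment 1, 9470744 to 15098391 in experiments 2 to 4, 29471254 to 32264864 in control experiment 1 and 10742058 to 13731015 in control experiment 2. Markers of other cell types were summed per list in experiment 1. The endothelial, macrophage, B cell, erythroid and thyroid follicular lists reached at most 0.216 CPM, and that of adipocytes 1.08 CPM. The lists for pericytes, thyroid C cells, thymic epithelium, keratinocytes and Schwann cells reached at most 27.0 CPM. Neutrophil markers summed to 9.63 to 73.2 CPM with S100a8 and S100a9 at 0, skeletal muscle markers to 36.9 to 62.2 CPM and MHC class II genes to 46.4 to 77.8 CPM, all within the ranges of experiments 2 to 4. T cell markers ran from 0 to 39.7 CPM, above the highest value of 22.001 CPM in experiments 2 to 4, with Cd3d, Cd3e and Cd3g at 0 in all 24 libraries. The 8 fibroblast markers summed to 257 to 391 CPM in experiment 1, within the 143 to 2787 CPM of experiments 2 to 4. No tested member of the 16 marker lists passed the test between them, but most members were too low to be tested. The endothelial, B cell, thyroid follicular and adipocyte lists had 0 members tested, the fibroblast list 5 of 8, the MHC class II list 6 of 7 and each other list at most 3. In bulk samples, fewer cells of a type and less RNA per cell cannot be told apart. The 4 libraries of experiment 1 also resembled each other less than those of any other experiment did, with a median Spearman correlation across genes of 0.835 over 6 pairs, against 0.864 to 0.881 within the other 5 experiments. Across experiments the median was 0.830 between experiment 1 and experiments 2 to 4, 0.862 among experiments 2 to 4, and 0.862 between these and control. These are descriptions of libraries that share all their genes.

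Experiment 1 differed from experiments 2 to 4 in 458 of 12716 genes tested, with 242 higher and 216 lower, which is 3.60% of genes (edgeR quasi-likelihood test on single libraries, Benjamini-Hochberg adjusted p below 0.05). The same fit called 25 genes for experiment 2 against the other 3 (0.197%), 17 for experiment 3 (0.134%) and 29 for experiment 4 (0.228%), and in each of these the other 3 include experiment 1. For 167 of the 458 genes every library of experiment 1 lay outside the range of all 12 others, 74 above (0.582% of genes) and 93 below (0.731%). When the counts of each experiment were summed, so that 1 experiment faced 3, edgeR called 0 genes, with 1747 at an unadjusted p below 0.05. All 49 called genes chosen by the naming rule then had an adjusted p of 0.0792 to 0.426. Their direction was unchanged, but the sums hold the same reads that chose them. The single-library calls below therefore describe these 4 libraries, and whether another experiment of the same kind would differ in the same way cannot be told from 1 experiment. The number of calls moved with the libraries too, from 281 without replicate 4 of experiment 1, and 294 without replicate 2, to 514 without its replicate 1. DESeq2 called 1155 genes and limma voom with a random effect for experiment 216.

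Of the 12 genes named for high fold changes without overlap, Upk3a had the highest. It encodes uroplakin 3A, a membrane protein of the urothelial plaque, and was read at 294, 1584, 2029 and 1174 CPM in experiment 1, at 4.72 to 104 CPM (median 21.9) in experiments 2 to 4 and at 46.3 to 219 CPM (median 71.4) in control cells. All 4 libraries lay above all 20 others, with a log2 fold change of 5.54 (SE 0.42, adjusted p = 3.28e-08) against experiments 2 to 4 and 3.89 (SE 0.47, adjusted p = 2.84e-05) against control. With counts summed per experiment its adjusted p was 0.0840. P4ha3, a catalytic subunit of the collagen prolyl hydroxylase, was read at 44.2, 139, 104 and 161 CPM against 0 to 17.5 CPM (median 0.756), a log2 fold change of 5.16 (SE 0.96, adjusted p = 0.00270). Its control libraries spanned 0.546 to 22.8 CPM and did not reach experiment 1.

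The other 10 genes named for high fold changes lay between log2 fold changes of 1.28 and 1.87. Dap, a death-associated protein linked to autophagy, was read at 92.3, 69.4, 71.9 and 118 CPM against 17.5 to 51.3 CPM (median 23.8), and its control range of 10.5 to 48.1 CPM was also below all 4. Atp6v0e2, a membrane subunit of the proton pump that acidifies lysosomes, was read at 103 to 173 CPM in 3 of the 4 libraries and at 90.0 CPM in replicate 3, against 26.0 to 63.0 CPM (log2 fold change 1.69, SE 0.25, adjusted p = 0.000462). Rnase4, a secreted ribonuclease, the quinone oxidoreductase gene Cryz and the uridine-cytidine kinase gene Uck1 had log2 fold changes of 1.47, 1.33 and 1.28, and their experiment 1 libraries lay above every control library as well. The tetraspanin gene Tspan12, the antiviral tether gene Bst2, the kallikrein gene Klk1b4 and the interferon-induced gene Ifi27 lay above all libraries of experiments 2 to 4 but overlapped the control libraries. Klk1b4 belongs to a family of near-identical kallikrein genes, so its reads may be shared with relatives and its value is uncertain. Leaving out 1 library of experiment 1 ended the call of Tspan12 (replicate 3) and of Bst2 (replicate 4). Tspan12 was also not called without experiment 2, nor Klk1b4 without experiment 3.

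Genes named for low fold changes mostly had long transcripts and low levels. Zfp113, a zinc finger gene of the KRAB family, was read at 74.5, 23.4, 37.3 and 12.9 CPM in experiment 1, at 137 to 336 CPM (median 194) in experiments 2 to 4 and at 129 to 398 CPM (median 199) in control cells. No library overlapped, and the log2 fold change was -2.51 (SE 0.32, adjusted p = 6.93e-05). Supt16, a subunit of the FACT histone chaperone, was read at 13.6, 23.01, 20.2 and 0 CPM against 76.2 to 205 CPM (median 118; log2 fold change -3.10, SE 0.59, adjusted p = 0.00316). For both genes experiment 1 lay below the control libraries too. Among the 12, Itsn1, an endocytic scaffold, had the lowest log2 fold change at -4.20 (SE 0.89), from 26 reads in all 4 libraries of experiment 1.

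Of the 12 genes chosen for low fold changes, 11 had a mean transcript length above 3000 bases, and the exception was Atic, a purine synthesis enzyme, at 1877 bases. The median length over all genes tested was 2725 bases. Sdad1, Osbpl11, Tcf12, Taf1, Zfp292, Lats1 and Dock1 had log2 fold changes of -3.28 to -2.38. They include the transcription factor gene Tcf12, the general transcription factor subunit Taf1 and the Hippo kinase Lats1. Tcf12, Atic and Taf1 overlapped control libraries. With an offset for transcript length, Taf1 and Lats1 were no longer called, and with a further offset for GC content Zfp292 was not either. The call of Atic was lost on leaving out any of 10 libraries, among them replicates 2, 3 and 4 of experiment 1. That of Taf1 was lost without replicate 2 or 3 and that of Tcf12 without replicate 3. Sdad1, Tcf12 and Atic were not called without experiment 4. Sdad1 and Atic were also not called without experiment 3 or with mouse-host libraries only.

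**Figure D1:**
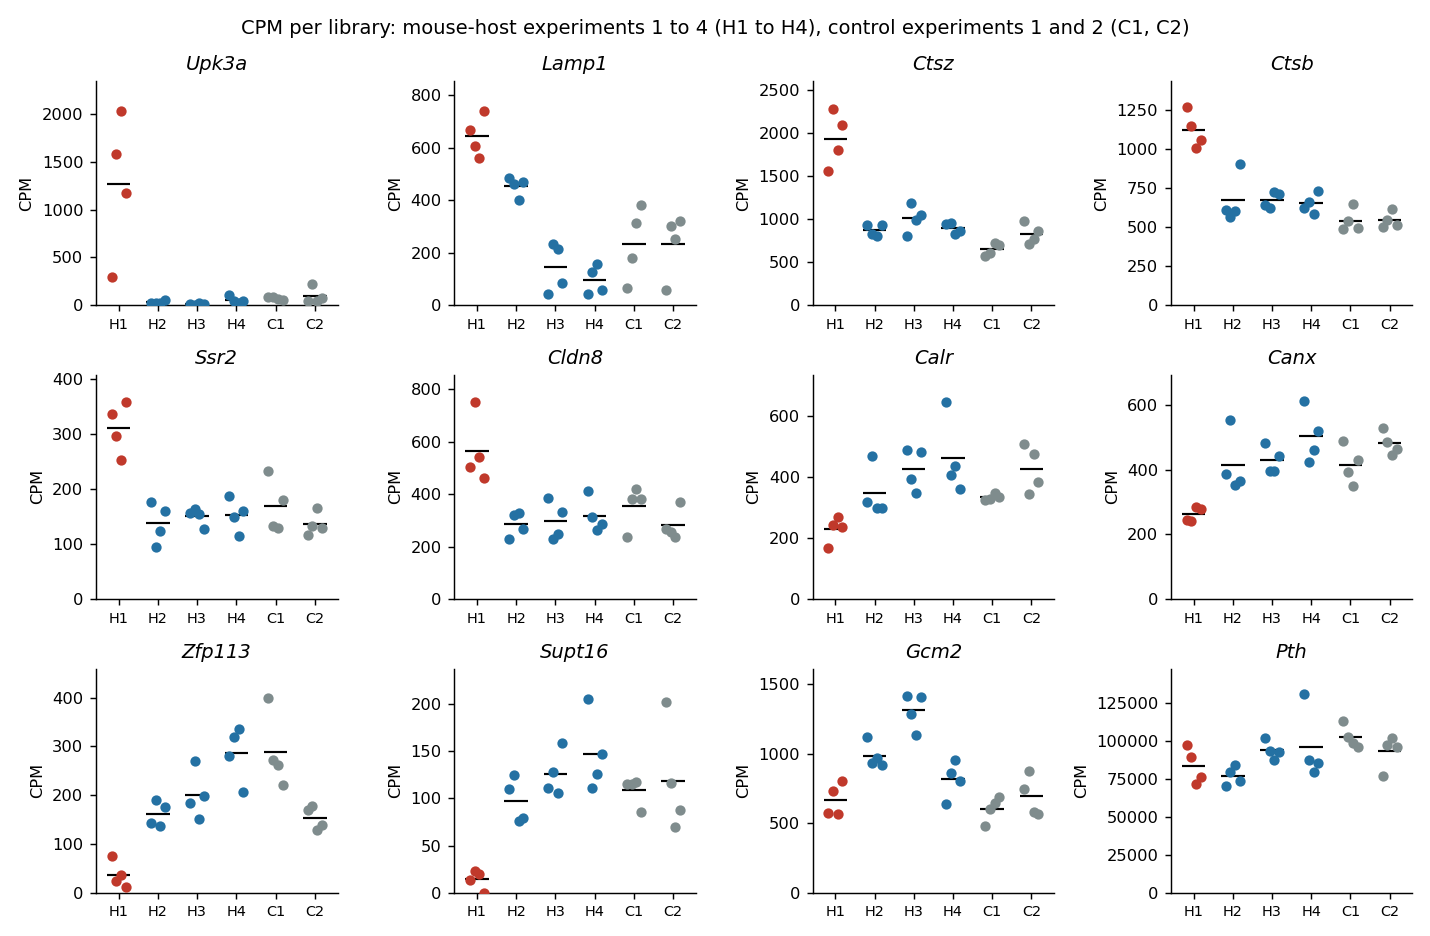
CPM of 12 genes (vertical axes, linear and starting at 0) in each library of mouse-host experiments 1 to 4 (H1 to H4) and control experiments 1 and 2 (C1, C2); points are libraries and bars are means of 4. Experiment 1 stands above the rest for Upk3a, Lamp1, Ctsz, Ctsb, Ssr2 and Cldn8 and below it for Calr, Canx, Zfp113 and Supt16, while Pth and Gcm2 overlap.

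Lysosomal genes gave the largest number of calls among the pathway lists. Of 26 genes tested, 8 were called higher and 0 lower, against 1.90% and 1.70% of all genes, and the median log2 fold change was 0.43 against 0.04 over all genes. Ctsz, the exopeptidase cathepsin Z, was read at 1551, 2277, 1802 and 2086 CPM against 796 to 1187 CPM (median 930.0) in experiments 2 to 4 and 571 to 981 CPM in control cells (log2 fold change 1.06, SE 0.10, adjusted p = 2.05e-06). Ctsb, cathepsin B, was read at 1267, 1149, 1009 and 1059 CPM against 566 to 906 CPM (median 634) and 488 to 648 CPM, a log2 fold change of 0.75 (SE 0.11, adjusted p = 0.000308). In both genes experiment 1 stood above every other library.

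Lamp1, the main glycoprotein of the lysosomal membrane, showed a spread among the other experiments that the cathepsins did not. It was read at 668, 606, 562 and 741 CPM in experiment 1, at a mean of 454 CPM in experiment 2, 144 CPM in experiment 3 and 96.0 CPM in experiment 4, and at 59.6 to 381 CPM in control cells. Its log2 fold change of 1.81 (SE 0.39, adjusted p = 0.00889) was not called without experiment 4. The other called members were the mannosidase Man2b1 (log2 fold change 1.31), the cholesterol carrier Npc2 (0.74), the protective protein gene Ctsa (0.66), the protease Ctsd (0.63) and the saposin precursor Psap (0.43). The summed level of the 26 genes was 7943, 9122, 8446 and 8314 CPM in the replicates of experiment 1, 5112 to 6270 CPM in experiments 2 to 4 and 4635 to 5391 CPM in control cells, with no overlap. The 8 calls stood at 8 with an offset for length and at 6 with offsets for length and GC content.

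Of 28 proteasome and ubiquitin genes tested, 7 were called higher and 0 lower, against 1.90% and 1.70% of all genes, with a median log2 fold change of 0.19. The polyubiquitin gene Ubb had a log2 fold change of 0.45 (SE 0.09, adjusted p = 0.00464), and the calls included the subunit genes Psma7, Psmc1, Psmc3, Psmb6 and Psmb3 (0.37 to 0.58). Ubb was read at 6017, 5385, 5166 and 6236 CPM, and replicate 3 lay below the 5211 CPM of 1 library of experiment 4. The list summed to 15507 to 16951 CPM in experiment 1, above the 11224 to 14863 CPM of experiments 2 to 4 and the 12513 to 14003 CPM of control cells. These genes have short transcripts, with a median length of 1355 bases. The 7 calls fell to 3 with an offset for length and to 1 with offsets for length and GC content.

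Genes of the secretory route were called in both directions, against 1.90% higher and 1.70% lower of all genes. Ssr2, a subunit of the translocon-associated protein complex, was read at 336, 297, 252 and 357 CPM against 95.0 to 187 CPM (median 155; log2 fold change 1.08, SE 0.16, adjusted p = 0.000430). The signal peptidase subunit Sec11a was also called (0.60, SE 0.17, adjusted p = 0.0499), a call lost on leaving out any of 22 libraries, and 0 of the other 18 translocation genes were. Among 21 unfolded protein response and chaperone genes, the disulfide isomerase P4hb was higher (0.64, SE 0.15, adjusted p = 0.0155), at 390.4, 492, 395 and 385 CPM against 177 to 341 CPM, a call lost without replicate 2. The lectin chaperones Calr and Canx were lower. Calr was read at 169, 242, 269.7 and 236 CPM against 299.5 to 645 CPM (-0.84, SE 0.16, adjusted p = 0.00349), and Canx at 245, 242, 286 and 277 CPM against 352 to 611 CPM (-0.77, SE 0.12, adjusted p = 0.000874). Neither overlapped the other 12 or the control libraries. With an offset for length Calr kept its call and Canx did not. The 14 secretory granule genes tested gave 0 calls in this fit, which for a list of this size is near the 3.60% of all genes called.

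Of 13 mitochondrially encoded genes, 4 were called lower and 0 higher, against 1.70% and 1.90% of all genes, with a median log2 fold change of -0.51. The limma voom fit with a random effect for experiment called 1. mt-Nd5, a complex I subunit, was read at 614, 301, 335 and 271 CPM against 479 to 1407 CPM (median 758; -1.03, SE 0.20, adjusted p = 0.00336), and mt-Co2, a cytochrome oxidase subunit, at 1942, 1152, 995 and 1164 CPM against 1215 to 4029 CPM (-0.80, SE 0.19, adjusted p = 0.0162). The other called genes were mt-Co3 and mt-Nd4l. Replicate 1 lay within the range of the others in both genes, and the list summed to 27178 CPM there against 14006, 13551 and 14200 CPM in replicates 2, 3 and 4. In experiments 2 to 4 the sums ran from 14691 to 42199 CPM. Without experiment 4 the calls fell from 4 to 1, and mt-Co2 was not called without replicate 2, 3 or 4 of experiment 1. Of 37 nuclear respiratory chain genes, 4 were called higher and 0 lower, against the same shares (Ndufb8, Uqcrc1, Sdhb and Ndufs7, log2 fold changes 0.38 to 0.48). That median was 0.07, and 2 calls were left with an offset for length. With offsets for length and GC content 0 were called higher and 1 lower, and with mouse-host libraries only 0 were called. Ndufb8 lost its call without replicate 4 and Uqcrc1 without replicate 3. The 39 cytosolic ribosomal protein genes had a median of -0.11 and 0 calls, against 3.60% of all genes.

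Interferon-stimulated genes gave 5 calls, all higher, among 22 tested, against 1.90% of all genes. There were 3 calls with limma voom and a random effect for experiment, and 2 of 20 without experiment 4. Ifi27 was read at 144, 176, 71.9 and 150.0 CPM against 27.6 to 68.5 CPM (log2 fold change 1.52, SE 0.27, adjusted p = 0.00184), and Bst2 at 40.8, 36.6, 35.2 and 94.4 CPM against 6.06 to 24.3 CPM (1.79, SE 0.33, adjusted p = 0.00270). The other called members, the antiviral enzyme Oas1a and the genes Isg15 and Ifi44, were read at no more than 31.4 CPM, and Isg15 and Ifi44 had a library of experiment 1 at 0. The list summed to 536, 536, 291 and 732 CPM in experiment 1, so replicate 3 lay within the 260 to 360 CPM of experiments 2 to 4, and the female controls summed to 460 to 498 CPM. Among 15 genes of MHC class I presentation, H2-D1 (0.64) and the proteasome activator Psme1 (0.80) were called higher and H2-T23 lower (-0.79). The shares over all genes were 1.90% and 1.70%. H2-D1 and Psme1 were not called with an offset for length. Leaving out replicate 2 or 4 ended the call of H2-D1, replicate 3 that of H2-T23, and any of 11 libraries that of Psme1.

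Junction genes gave 4 calls among 21, all higher, against 1.90% of all genes, and 2 with offsets for length and GC content, where Krt18 was lost. Cldn8, a claudin of tight junctions, was read at 505, 752, 541 and 461 CPM against 229 to 411 CPM (median 299; log2 fold change 0.91, SE 0.16, adjusted p = 0.00189). Krt18, a keratin of simple epithelia, was read at 395, 512, 503 and 532 CPM against 240.0 to 394 CPM (0.65, SE 0.12, adjusted p = 0.00230), with replicate 1 just above the highest of the others. F11r and Cldn6 were the other called members. The list sum of 4186 to 4604 CPM lay above that of experiments 2 to 4 (3320 to 4057 CPM), and a control library reached 4271 CPM. The desmosomal cadherin Dsc1 was read at 0.324, 0.194, 0.176 and 0.0800 CPM in experiment 1, from 8 reads in all, and at 5.47 to 15.3 CPM in control cells. It did not separate experiment 1, because 3 of 4 libraries of experiment 2 were as low, at 0.0751 to 0.156 CPM, while experiments 3 and 4 averaged 88.1 and 227 CPM. Its edgeR call (adjusted p = 9.82e-05) thus rests on experiments 3 and 4, and with limma voom and a random effect for experiment it was not called (adjusted p = 0.536).

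**Figure D2:**
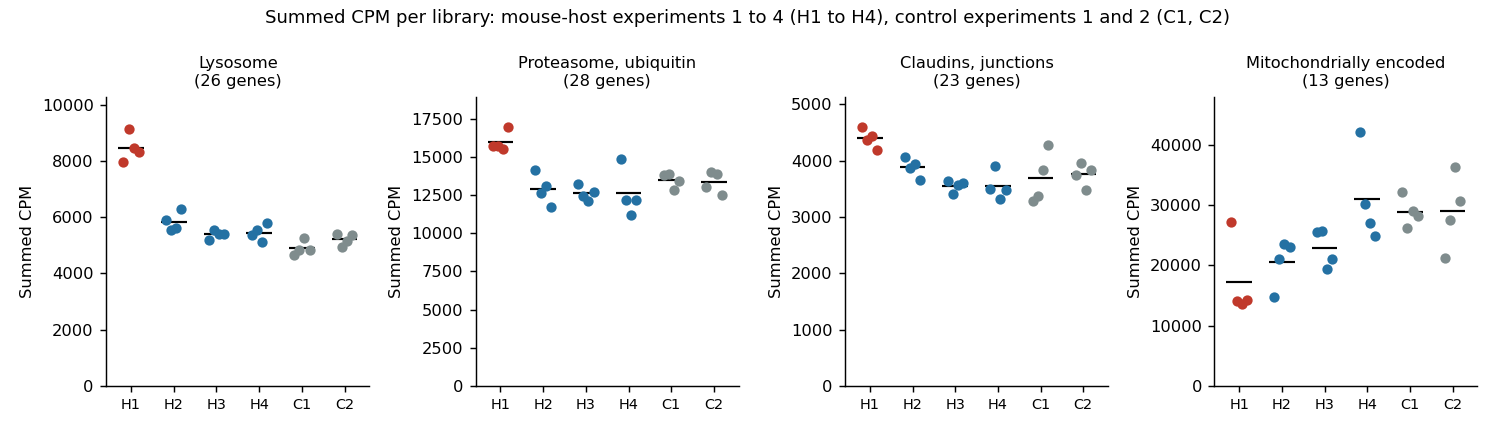
Summed CPM (vertical axes, linear and starting at 0) of the listed lysosomal, proteasome and ubiquitin, junction and mitochondrially encoded genes per library, in mouse-host experiments 1 to 4 (H1 to H4) and control experiments 1 and 2 (C1, C2); bars are means of 4 libraries. The lysosomal sum of experiment 1 (7943 to 9122 CPM) overlaps no other library, and in the mitochondrial panel replicate 1 of experiment 1, at 27178 CPM, lies apart from its 3 fellows.

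Of 16 genes of parathyroid function tested, 0 were called higher and 1 lower, against 1.90% and 1.70% of all genes, and the median log2 fold change was -0.03. DESeq2 called 2 lower, against 641 of all 12716 genes. Limma voom with a random effect for experiment called 0, and edgeR without experiment 4 called 3 of 15 lower, against 174 of 12514. The called gene was Gcm2, at -0.61 (SE 0.13, adjusted p = 0.00876). Its mean was 667 CPM in experiment 1 and 986, 1310.2 and 815 CPM in experiments 2, 3 and 4, and the call was lost without experiment 3 and with limma voom. Against control cells Gcm2 of experiment 1 had a log2 fold change of 0.05 (SE 0.13, adjusted p = 0.916), while experiments 2 to 4 were higher than control by 0.65 (adjusted p = 0.00187). Pth had a log2 fold change of -0.08 (SE 0.10, adjusted p = 0.757) and Chga one of -0.05 (SE 0.06, adjusted p = 0.708), so neither was called. Vdr, which encodes the receptor for vitamin D, had 0.10 (SE 0.13, adjusted p = 0.769). Casr was read at 347, 519.8, 501 and 473 CPM against 260.0 to 912 CPM (-0.44, SE 0.19, adjusted p = 0.208). Kl, the klotho co-receptor for FGF23, was read at 860.1, 895, 815 and 666 CPM against 662 to 1768 CPM (-0.58, SE 0.17, adjusted p = 0.0526; called in 5 of 39 alternative settings), and Gata3, a transcription factor of the gland, had 0.23 (SE 0.11, adjusted p = 0.305). With an offset for transcript length, Gata3 (0.40, adjusted p = 0.0241) and Vdr (0.53, adjusted p = 0.0196) were called higher by edgeR and Gcm2 was called lower (-0.51, adjusted p = 0.0241).

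Other lists gave few or no calls, against 3.60% of all genes called in both directions. The immediate early gene Junb was higher (1.70, SE 0.46, adjusted p = 0.0379), at 239, 235, 158 and 143 CPM against 24.1 to 169 CPM, and 1 of 16 members was called. The mitochondrial chaperone Hspd1 (-0.60), the X-linked demethylase Kdm5c (-2.22) and the imprinted gene Peg3 (-1.43) were lower, and the mevalonate pathway gene Pmvk was higher (1.23), each the only called member of its list. Junb, Kdm5c, Peg3 and Pmvk were not called with an offset for length. Leaving out any single library of experiment 1 ended the call of Junb. Those of Pmvk (without replicate 1, 2 or 3) and Kdm5c (3 or 4) were also lost. The 28 cell cycle genes had a median log2 fold change of 1.63 with 0 calls, from sums of 210 to 908 CPM in experiment 1 and 141 to 1599 CPM in experiments 2 to 4. Lists for glycolysis, circadian clock, Hox, DNA methylation, pluripotency and nuclear non-coding RNA gave 0 calls in the edgeR fit used above. Alternative edgeR fits called 1 cell cycle and 1 glycolysis gene without experiment 2, and 1 circadian gene with an offset for effective length. DESeq2 called more genes in all, 1155 of 12716. Among them were 3 of 28 cell cycle, 3 of 24 glycolysis, 2 of 16 circadian, 2 of 14 secretory granule, 1 of 7 Hox and 1 of 11 DNA methylation genes.

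The differences followed transcript length. Length here is the Length of a gene's transcripts in the tables, averaged with the reads of the 24 libraries as weights. The median log2 fold change of experiment 1 against experiments 2 to 4 was 0.10 for 994 genes under 1000 bases, 0.21 for 3011 genes from 1000 to under 2000 bases and 0.13 for 3239 genes from 2000 to under 3000 bases. It was -0.06 from 3000 to under 4000 bases, -0.28 from 4000 to under 6000 bases and -0.65 for 914 genes of 6000 bases and over. The Spearman correlation across genes was -0.253, and genes are not independent replicates. The order was not even at the short end, where the class of 1000 to under 2000 bases stood above the shortest.

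The calls were divided in the same way. In the class of 1000 to under 2000 bases 3.92% of genes were called higher and 0.399% lower, and in the longest class 0.219% higher and 6.13% lower. Of the 74 genes whose libraries all lay above, 73 were shorter than 3000 bases, and of the 93 that lay below, 80 were of 3000 bases and over. Over all genes tested the median length was 2725 bases. The classes under 3000 bases held 994, 3011 and 3239 genes, and those from 3000 bases on 2401, 2157 and 914. The trend was present in each of the 4 libraries set alone against experiments 2 to 4, with correlations of -0.188, -0.157, -0.125 and -0.198. It was -0.264 to -0.208 when any 1 of the 24 libraries was left out, the weakest without replicate 1 of experiment 1. It was weak among the 1418 tested genes with 1 listed transcript (-0.0641) and -0.261 among genes of at least 50 CPM, both subsets chosen after the data were seen.

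Single libraries showed how far experiment 1 stood from the rest. The median deviation of genes of 6000 bases and over from their mean log2 CPM in 24 libraries was -0.61, -0.47, -0.30 and -0.91 in its replicates. Of the 12 other mouse-host libraries, 11 had values of 0.05 to 0.60, and replicate 1 of experiment 4 had -0.31, within the range of experiment 1. That library carried the lowest read-weighted transcript length of all 24 (2146 bases, Pth and Chga left out) and the highest mitochondrial share among mouse-host libraries (3.90% of reads). The 8 control libraries had 0.09 to 0.45 in the longest class.

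**Figure D3:**
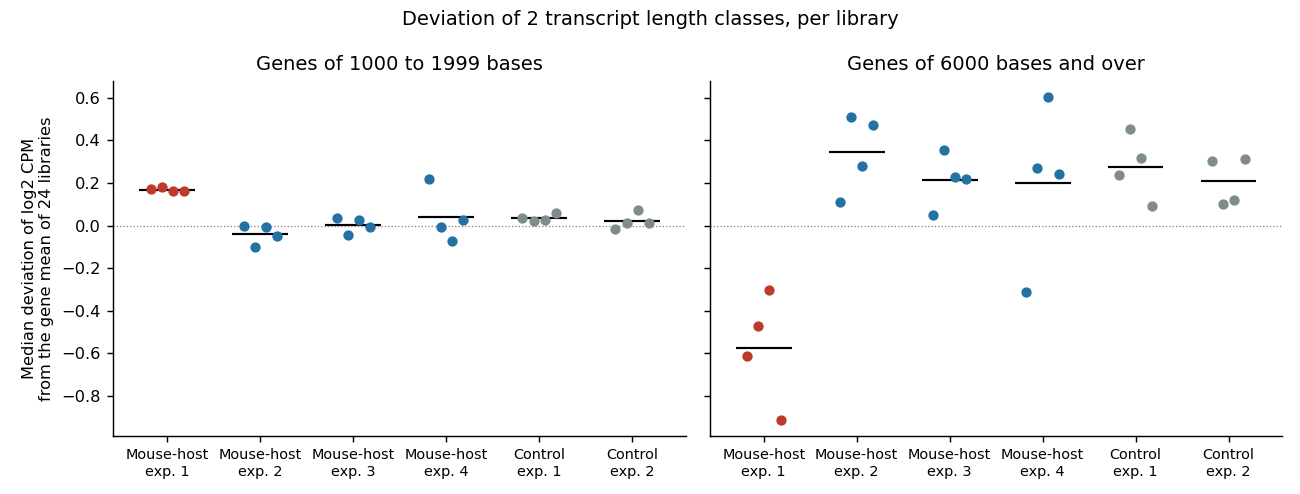
Median deviation of log2 CPM (vertical axis) from each gene's mean over 24 libraries, for genes of 1000 to under 2000 bases (left) and of 6000 bases and over (right); points are libraries and bars are means of 4. In the right panel the 4 libraries of experiment 1 and replicate 1 of mouse-host experiment 4 are below 0, and all other libraries are above 0.

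The slope of these deviations per doubling of length was -0.232 ± 0.0826 (SD, n = 4) in experiment 1, 0.0656 ± 0.119 (SD, n = 12) in experiments 2 to 4 and 0.0173 on average in control libraries. The difference of means passed a two-sided exact permutation test (p = 0.00165, adjusted p = 0.0148 over 9 measures, where 1820 regroupings allow no p below 0.000549). With experiments as units, 1 against 3, the smallest p is 0.25. Read-weighted transcript length was also lower, at 2270.2 ± 31.9 bases (SD, n = 4) against 2427 ± 105 bases (SD, n = 12; exact permutation p = 0.0110, adjusted p = 0.0330). Fewer genes were detected at a common depth of 9000000 reads, 11870.2 ± 381 (SD, n = 4) against 12468 ± 264 (SD, n = 12; exact permutation p = 0.00495, adjusted p = 0.0223).

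The other 4 measures did not pass after adjustment, nor did the shares of Pth and Chga given above. Within genes of several transcripts, the read-weighted isoform length deviated by 0.00291 on the log2 scale in experiment 1 and by -0.00181 in experiments 2 to 4 (6200 genes; exact permutation p = 0.455, n = 4 and 12). The mean fragment term, taken as Length minus EffectiveLength for transcripts over 5000 bases, was 378, 391, 396 and 375 bases in experiment 1 and 335 to 399 bases in the others (exact permutation p = 0.0775, adjusted p = 0.116, n = 4 and 12). The mitochondrial share of reads was 2.65%, 1.35%, 1.34% and 1.41% against 1.45% to 3.90% (exact permutation p = 0.0418, adjusted p = 0.0940, n = 4 and 12), and the 100 most abundant genes took 44.1% ± 0.763 (SD, n = 4) against 45.3% ± 1.37 (SD, n = 12; exact permutation, adjusted p = 0.137). The part of these measures in the length trend was not tested.

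The other mouse-host experiments had gradients of the opposite sign in the longest class. Experiment 2 against the other 3 had a median of 0.39 there, experiment 3 0.19 and experiment 4 0.22, and experiment 1 is among the other 3 each time. Across all genes tested, their Spearman correlations with length were 0.250, 0.103 and 0.0321. That of experiment 2 was close in size to the -0.253 of experiment 1, with the opposite sign. Experiments 2 to 4 against control had a median of -0.0030 in the longest class and a correlation with length of 0.0767.

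**Figure D4:**
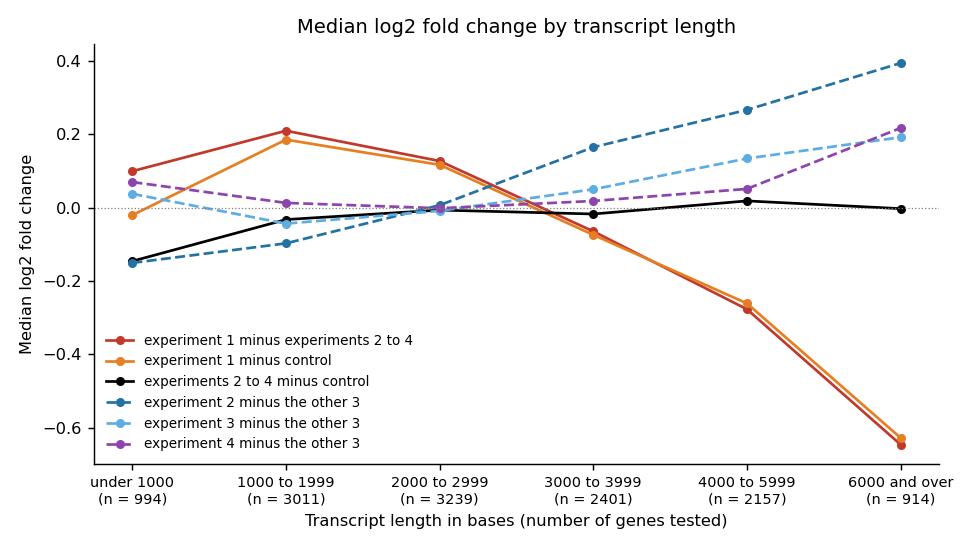
Median log2 fold change (vertical axis) in 6 classes of transcript length (horizontal axis, bases, with the number of genes tested) for 6 comparisons. Experiment 1 against experiments 2 to 4 and against control run together from 0.21 and 0.19 in the class of 1000 to under 2000 bases to -0.65 and -0.63 in the longest class, while experiments 2 to 4 against control lie between -0.03 and 0.02 from 1000 bases on; comparisons share libraries.

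GC content moved with length. Long transcripts had less GC (Spearman correlation -0.221 over 12712 genes), and the fold change of experiment 1 correlated with GC content at 0.287. For experiments 2, 3 and 4, each against the other 3, the correlation with GC content was 0.0602, -0.147 and -0.272. Within tertiles of GC content the correlation with length was -0.235, -0.242 and -0.131 from low to high GC, and within tertiles of length the correlation with GC content was 0.259, 0.260 and 0.214 from short to long. Each was thus present with the other held within a range. Short genes of high GC had a median log2 fold change of 0.31, with 99 called higher and 3 lower of 1836. Long genes of low GC had -0.48, with 2 higher and 91 lower of 1823, and long genes of high GC had 0.03. The GC slope was not shared by all 4 libraries: per 10 percentage points of GC it was 0.460, 0.404 and 0.452 in replicates 2, 3 and 4 and 0.0289 in replicate 1, while replicate 1 of experiment 2 had 0.347.

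**Figure D5:**
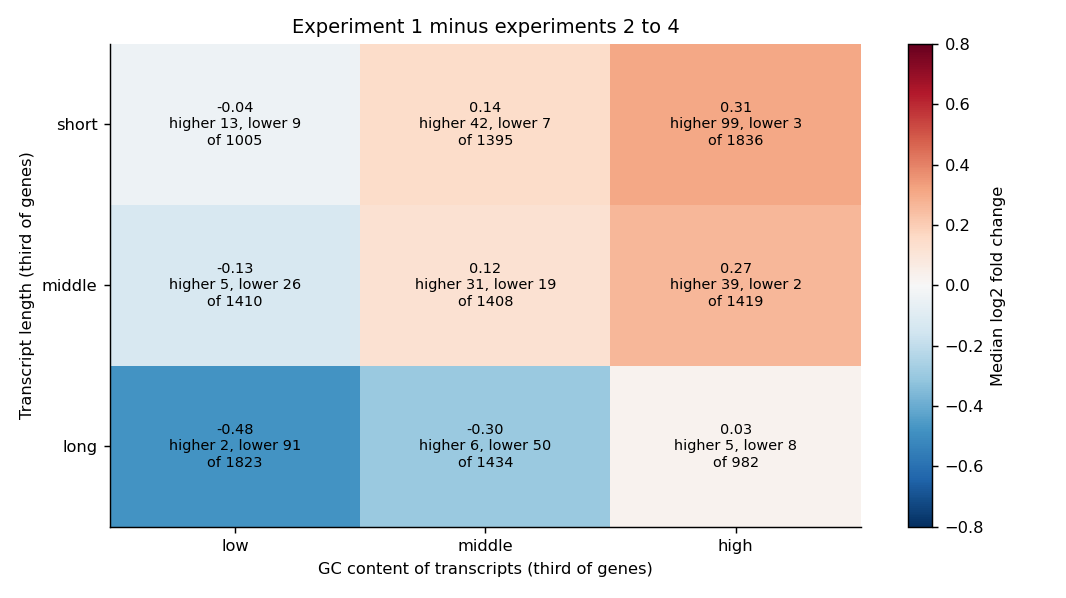
Median log2 fold change of experiment 1 against experiments 2 to 4 (colour and first line of each cell) by tertile of transcript length (rows) and of GC content (columns), with the genes called higher and lower and the number tested. The cells run from 0.31 for short genes of high GC content to -0.48 for long genes of low GC content.

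The split of calls depended on how length was taken into account. With a smooth offset for length per library, edgeR called 329 genes, 242 higher and 87 lower, of which 229 were among the 458 (the correlation with length was then 0.0383). With offsets for length and GC content, added after the data were seen, 308 were called, 221 higher and 87 lower, of which 173 were among the 458. The share called higher thus moved from 52.8% to 73.6% and 71.8%. The limma voom fit with a random effect for experiment called 169 higher and 47 lower, and limma-trend called 217 higher and 386 lower on log2(TPM + 1) and 204 and 467 on log2(TPM + 0.1). The median log2 fold change over all genes was 0.04 in the fit used above, 0.11 with the length offset and -0.11 on log2(TPM + 0.1). Of the 49 called genes chosen by the naming rule, 37 were called with the length offset and 32 with both. Upk3a, P4ha3, Ctsz, Ctsb, Ssr2, Cldn8, Zfp113, Supt16 and Calr were among those called under both. An offset from the authors' effective lengths gave 530 calls, 277 higher and 253 lower, and Dock1 then lost its call.

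The control libraries lay with experiments 2 to 4. Experiment 1 against control gave 533 calls (279 higher, 254 lower, 4.19%), and experiments 2 to 4 against control gave 18 (5 higher, 13 lower, 0.142%) in the same fit. With counts summed per experiment both gave 0, with 1989 and 592 genes at an unadjusted p below 0.05. The 2 comparisons with control and the first comparison share libraries, so their values stand side by side and are not independent. For the 74 genes above, the median log2 fold change was 0.75 against experiments 2 to 4, 0.74 against control, and -0.04 for experiments 2 to 4 against control. For the 93 genes below it was -1.62, -1.45 and 0.10.

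Among the genes without overlap, most were also called in experiment 1 against control. Of the 74 and the 93 genes 49 and 72 were called against control, beside 4.19% of all genes. The mean of control experiment 1 was nearer to experiment 1 than to experiments 2 to 4 for 7 of the 74 and 5 of the 93 genes, and that of control experiment 2 for 6 and 5. Over all genes tested the shares were 33.5% and 31.7%. The genes were chosen for the distance between the mouse-host groups, so these counts are a description. With control experiment 1 alone 312 genes were called against control, and with control experiment 2 alone 209. Against control, 341 were called higher and 156 lower with the length offset, 223 and 131 with both offsets, and 351 and 135 with limma voom. For experiments 2 to 4 against control the split of 5 to 13 was 9 to 11 with the length offset and 24 to 25 on log2(TPM + 1). By genes, Ctsz (1.39), Ctsb (1.05), Zfp113 (-2.51), Canx (-0.77) and Ssr2 (1.04) were called against control, while Ifi27 (1.02), Bst2 (1.22), P4ha3 (3.41) and Lamp1 (1.46) had adjusted p of 0.0502 to 0.0697.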

How the data were processed

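RNA was measured in 32 libraries of 10 to 20 picked cells, and 24 of them were used here. The authors quantified transcripts with Salmon against GRCm39, per the submitters' processing notes, whose version is not given in the sources used here, as is the annotation. The deposited tables hold, per the file headers, expected counts of reads, TPM (scaled by the authors for transcript length and library size), Length and EffectiveLength per transcript. Of 116747 transcripts, 115685 matched a gene by identifier in GENCODE M21, which gave names and GC content only. The other 1062 held 0.471% of reads in these libraries and were left out. Expected counts were summed per gene (35458 genes) and rounded to whole numbers.

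A single edgeR fit held all 24 libraries, each experiment having its own coefficient (edgeR 4.0.16 in R 4.3.3: TMM, filterByExpr, quasi-likelihood test, 18 residual degrees of freedom). Genes were called at a Benjamini-Hochberg adjusted p below 0.05, adjusted over the 12716 genes tested, and the SE is the fold change divided by the root of the F statistic. Alternatives used DESeq2 1.42.0, limma 3.58.1, TPM, effective length, and lowess offsets for length and GC content. Library measures were compared by two-sided exact permutation tests. No unique molecular identifiers were used. The errors of the fit cover the spread between libraries of an experiment, and not that between experiments. No 2 libraries of an experiment agreed within sampling noise (chi-square over degrees of freedom at least 45.5 in 36 pairs). In simulated counts for the first comparison (12445 genes), edgeR called 21.4% of 98 genes changed 2-fold, 40.4% of 99 changed 4-fold and 1 unchanged gene. All simulated libraries were drawn around a common mean per gene, apart from the changed genes in experiment 1. The simulation thus held no other shifts between experiments and does not show how many calls such shifts would give.

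The naming rule takes up to 12 in each direction with the most extreme fold change among genes called without overlap, of at least 8 CPM on average; the 2 called members with the smallest p per pathway list and direction; and 7 parathyroid genes. Called list members beyond these, and the library singled out in experiment 4, were picked after their values were seen. The comparison, the lists and the rule were chosen with earlier results of these data known. Some genes that the rule chose are counted but not reported here by name.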

Additional observations from a re-analysis of the deposited data

Results flagged for a closer look

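Within experiment 1, the values of 4 libraries were screened for a library whose gap to its nearest neighbour exceeds Dixon's critical share of the range, over 67 sets of values (12 library measures and the named genes). Chance alone marks about 1 in 20 sets, and 7 were marked here. Replicate 1 had a GC slope of 0.0289 against 0.404 to 0.460 in its fellows, an isoform length deviation of 0.0168 on the log2 scale against -0.00319 to -0.000571, and a mitochondrial share of 2.65% of reads against 1.34% to 1.41%. Replicate 4 had 42.9% of its reads on the 100 most abundant genes against 44.4% to 44.5%, Bst2 at 94.4 CPM against 35.2 to 40.8 CPM, and Itsn1 at 1.68 CPM against 0 to 0.265 CPM. Replicate 2 had P4hb at 492 CPM against 385 to 395 CPM.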

How the results depend on the processing

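Calls of experiment 1 against experiments 2 to 4 (458) numbered 0 with counts summed per experiment, 1155 with DESeq2, 216 with limma voom and a random effect for experiment, and 281 to 514 leaving out 1 library. The 533 calls against control became 0, and 1435 with DESeq2, 814 and 860 on log2(TPM + 1) and log2(TPM + 0.1), 354 with length and GC offsets, 312 and 209 with control experiment 1 or 2 alone, and 316 to 698 leaving out 1 library. Experiments 2 to 4 against control (18) gave 0 with sums, 268 with DESeq2, 32 with voom, 49 and 34 on TPM, 3 with control experiment 2 alone and 11 to 38 leaving out 1 library. Experiment 2 (25) gave 276 with DESeq2, 61 without the filter on low counts, 11 with mouse-host libraries only and 10 to 34 leaving out 1 library. Experiment 3 (17) gave 254 with DESeq2, 32 and 30 on TPM and 11 to 24. Experiment 4 (29) gave 348 with DESeq2, 51 and 52 on TPM, 13 with mouse-host libraries only and 6 to 88, with 6 without its replicate 1 and 88 without replicate 1 of experiment 1.

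The genes both called and without overlap (167) numbered 99 with voom, 267 without experiment 2 and 103 with length and GC offsets. Leaving out 1 library gave 155 to 298, the highest without replicate 1 of experiment 1. With sums the number was 0 because no gene was called there. Called or not, 218 genes had no overlap in the fit used above. The length correlation (-0.253) was -0.0864 without the filter on low counts, -0.207 without experiment 2, -0.290 without experiment 4, -0.0641 in genes with 1 listed transcript and -0.264 to -0.208 leaving out 1 library. It turned to 0.0383 and 0.0896 with the offsets for length and for length and GC, which are built to remove it. For the others the cause was not tested. Pth turned to 0.13 with both offsets and Vdr to -0.0553 without experiment 4, neither called. Of the 49 called genes chosen by the naming rule, 33 kept their call whichever library was left out. The number was 43 with mouse-host libraries only, and 41, 39 and 38 without experiment 2, 3 or 4. All 49 kept their sign in these fits, which share most of the reads that chose them.

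Same-numbered replicates showed no shared shift. Deviations of same-numbered libraries from their experiment means correlated at a median of -0.00646 over 60 pairs, with 0 pairs above 0.1. For different numbers the median was 0.00329 over 180 pairs, also with 0 above 0.1. These values do not tell what a replicate number stands for. With the replicate number as a block, 413 genes were called against experiments 2 to 4, 501 against control and 17 for experiments 2 to 4 against control, the genes without overlap numbered 159 and the length correlation was -0.260.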
